A study of Mus musculus with 8 samples.

Results

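The genes described here encode the tumor suppressor kinase LKB1 (Stk11), the catalytic subunits of AMPK (Prkaa1 and Prkaa2) and its beta 1 subunit (Prkab1), the salt-inducible kinases (Sik1, Sik2 and Sik3) and the CRTC coactivators (Crtc1, Crtc2 and Crtc3). They were chosen by name, and every H3K4me3 peak that the deposited table assigns to one of these 10 genes was taken. The table listed 18 such peaks for 9 of the 10 genes, among 35486 peaks of 20871 genes, and it listed none for Prkaa2. H3K4me3 is a histone mark found at the start sites of active and poised genes, and it was profiled with an assay labelled CUT&Tag, in which, by the protocol, an antibody guided a micrococcal nuclease fusion (pAG-MNase) to cut and release the marked DNA.

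The cells came from lung tumors of KL mice, which carry Lkb1fl/fl, and of KLG4m/m mice, which carry the Gpx4m/m allele in addition. All mice were on a C57BL/6 background, inhaled Cre-expressing adenovirus (Ad-Cre) at 8 to 10 weeks of age, received tamoxifen from 5 weeks later for 2 weeks and were sampled 10 weeks after infection. Ad-Cre removes exons 3 to 6 of Stk11 in both groups, so the recombined cells of both groups carry this deletion. Ad-Cre is not restricted to 1 cell type. In KLG4m/m mice Cre also frees a tamoxifen-dependent Dre recombinase, which then removes exons 5 to 7 of Gpx4, the enzyme that detoxifies lipid peroxides. The KLG4m/m line was crossed to KL for at least 5 generations, and Gpx4 and Stk11 lie close together on chromosome 10. Tumor cells were sorted as CD45-CD31-EpCAM+, with 1000000 cells taken per mouse. The table holds 2 libraries for each group, named KL replicates 1 and 2 and KLG4m/m replicates 3 and 4, described as 2 mice per group in one place, while the protocol speaks of 3 mice.

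LKB1 activates AMPK, the SIKs and related kinases by phosphorylating their activation loop, in a complex with a STRAD pseudokinase and an MO25 scaffold protein. Active SIKs phosphorylate the CRTCs and class IIa histone deacetylases and keep them in the cytoplasm. When SIKs are off, CRTCs enter the nucleus and coactivate CREB at genes with cyclic AMP response elements, and this branch is known as a route through which loss of LKB1 acts in lung cancer. AMPK, a trimer of alpha, beta and gamma subunits, senses low energy and restrains lipid synthesis.

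The start-site sequences of 4 of these genes are shown. Stk11 had the one peak past the threshold, although that peak lay further into the gene than the sequence shown. Sik3 had the most CREB half-sites of the 8 genes with a window, and Prkaa1 and Prkaa2 are the AMPK alpha genes with and without a listed peak. Each is the 250 bases before the RefSeq start in GRCm38.p6, written 5′ to 3′ on the gene's strand, with the CREB half-sites TGACG and CGTCA in capitals. The windows lie at chr10:80115545-80115794 (plus strand) for Stk11, chr9:46012570-46012819 (plus) for Sik3, chr15:5143611-5143860 (plus) for Prkaa1 and chr4:105109899-105110148 (minus) for Prkaa2. This build is not the one of the peak positions below.
Stk11: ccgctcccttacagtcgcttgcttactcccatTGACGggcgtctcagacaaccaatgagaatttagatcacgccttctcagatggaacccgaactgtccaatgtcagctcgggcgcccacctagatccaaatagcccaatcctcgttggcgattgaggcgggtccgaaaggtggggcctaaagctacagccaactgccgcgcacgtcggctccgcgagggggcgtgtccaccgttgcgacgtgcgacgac
Sik3: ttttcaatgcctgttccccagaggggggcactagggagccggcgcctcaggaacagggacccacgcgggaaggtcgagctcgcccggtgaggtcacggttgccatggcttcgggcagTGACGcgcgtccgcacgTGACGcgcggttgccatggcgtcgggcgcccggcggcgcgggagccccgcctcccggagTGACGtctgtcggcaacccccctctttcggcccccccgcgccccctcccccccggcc
Prkaa1: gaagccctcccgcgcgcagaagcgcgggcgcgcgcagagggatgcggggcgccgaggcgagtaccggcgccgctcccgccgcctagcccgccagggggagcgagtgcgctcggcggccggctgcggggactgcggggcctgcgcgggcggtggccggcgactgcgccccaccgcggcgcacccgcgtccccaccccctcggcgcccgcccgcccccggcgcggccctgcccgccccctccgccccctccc
Prkaa2: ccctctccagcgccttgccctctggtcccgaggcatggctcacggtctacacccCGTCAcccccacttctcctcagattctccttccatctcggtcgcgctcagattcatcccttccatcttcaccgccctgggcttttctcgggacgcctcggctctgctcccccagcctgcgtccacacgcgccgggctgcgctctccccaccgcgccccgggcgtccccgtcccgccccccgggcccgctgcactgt

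The promoter table used here matched 8 of the 10 genes, all but Sik1 and Crtc2, whose windows were not analysed here. Of these 8 windows, 3 had a half-site on either strand. Sik3 had 3, at -133, -116 and -57 from the start, all written TGACG. Stk11 had 1 at -218 and Prkaa2 had 1 at -196. Over all 32851 windows of the same length, 17.8% held at least 1 half-site, 3.90% at least 2 and 0.688% at least 3. The half-site TGACG is part of the full element TGACGTCA, which 1.55% of all windows and none of the 8 held. All 8 windows were rich in CpG, with 24 to 45 CpG dinucleotides against a median of 6 over all windows. TGACG and CGTCA each hold a CpG, so the shares of half-sites over all windows are not matched to these 8. Prkaa1 had the highest count of the 8, with 45. The Prkaa2 window held 24, as many as Stk11 and Prkab1 and more than 88.0% of all windows, although the table lists no H3K4me3 peak for Prkaa2.

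The 4 libraries held 3244495 to 3463731 reads in listed peaks, and the reads are given below as deposited and as counts per 1000000 reads in listed peaks (CPM) after TMM scaling, whose factors were 0.995 to 1.00. Differences were tested with edgeR's quasi-likelihood test over all 35486 peaks, and a peak was called at a Benjamini-Hochberg adjusted p under 0.05. Fold changes are KLG4m/m over KL. The libraries of a group differed by only little more than sampling noise (chi-square per degree of freedom 1.13 in KL and 1.23 in KLG4m/m) against 2.37 to 2.80 between libraries of different groups. The p-values below rest on this small spread between the libraries of a group. Epithelial marker genes carried peaks in both groups, with a summed signal of 314 and 321 CPM in KL and 271 and 276 CPM in KLG4m/m over all 6 genes. Of the alveolar type 2 markers, 5 of 6 had a peak, and Sftpc had none listed. The sort selects against CD45+ and CD31+ cells but does not separate tumor cell types, so fewer cells of a type and less signal per cell cannot be told apart.

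At the peak nearest the start site of each gene, the mark was strongest at Stk11 and Crtc2 and weakest at Prkaa1, Sik1 and Sik3 among these genes. In KL cells the first Stk11 peak averaged 89.0 ± 10.3 CPM (SD, n = 2), above 90.0% of all peaks within 1 kb of a start site. Crtc2 followed with 76.7 ± 2.99 CPM, then Prkab1 with 56.3 ± 3.003, Sik2 with 54.8 ± 3.82, Crtc3 with 51.1 ± 1.79, Crtc1 with 43.5 ± 10.1, Prkaa1 with 38.0 ± 0.441, Sik1 with 33.1 ± 3.69 and Sik3 with 17.1 ± 4.70 CPM. Every listed peak is 400 bp long, so these levels are on one length scale. From Prkab1 down to Prkaa1 the KL libraries of neighbours in this order overlapped, and the other neighbours were apart. The Sik3 peak, which begins 1.04 kb inside the gene, was above 26.6% of the near-start peaks.

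**Figure D1:**
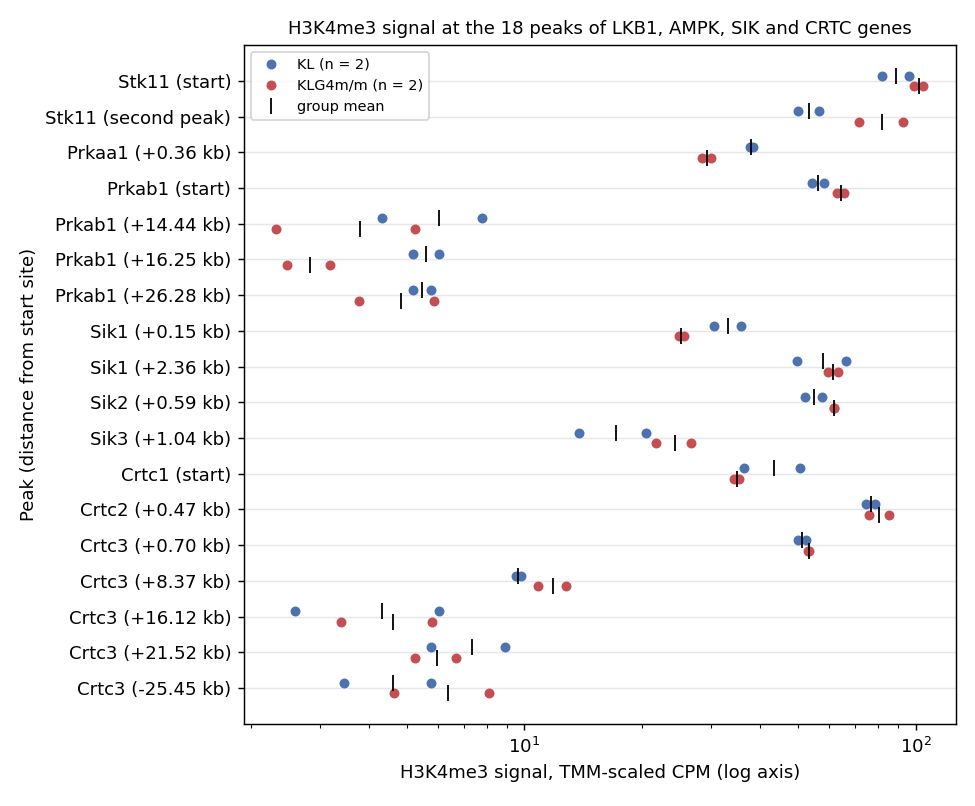
H3K4me3 signal in TMM-scaled CPM (log axis) at each of the 18 peaks, with a blue point for each KL library, a red point for each KLG4m/m library and a bar at each group mean. The second Stk11 peak is at 49.8 and 56.7 CPM in KL against 71.3 and 92.6 CPM in KLG4m/m, and the 7 peaks over 3 kb from a start site lie to the left of the others.

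Of the 18 peaks, 1 was called higher in KLG4m/m cells, the second Stk11 peak, and 0 were called lower. Of all listed peaks 3.1% were called higher and 5.52% lower, or 8.62% in either direction. DESeq2 called 0 of the 18 in either direction. It gave no adjusted p for the weak distal Prkab1 peaks and the Crtc3 peaks at 16.1, 21.5 and -25.4 kb from the start. At an unadjusted edgeR p under 0.05 there were 7 of 18 (38.9%), 3 higher and 4 lower, against 24.6% of all peaks. The 2 groups did not overlap in 11 of 18 peaks, 7 higher and 4 lower, against 54.2% of all peaks. The median log2 fold change of the 18 was 0.08, beside 0.01 over all peaks.

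Stk11 encodes LKB1 itself and had 2 peaks. The first lay over the start site at chr10:79951243-79951643 and held 284 and 334 reads in the KL libraries against 341 and 337 in KLG4m/m. The second began 2050 bp further into the gene, at chr10:79953293-79953693, 145 bp past the start of a shorter predicted transcript (XM_006513439.5). Its reads numbered 197 and 173 in the KL libraries, and 246 and 299 in the KLG4m/m libraries.

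At the second peak both KLG4m/m libraries were above both KL libraries. The mean went from 53.3 ± 4.84 CPM to 82.0 ± 15.02 CPM (SD, n = 2 each), a 1.53-fold rise (log2 fold change 0.62, SE 0.117, 95% interval 0.38 to 0.86, edgeR adjusted p = 0.00140). The first peak went from 89.0 ± 10.3 to 102 ± 3.85 CPM, also without overlap, but it was not called (log2 fold change 0.19, SE 0.0929, adjusted p = 0.202; 0.08 without KL replicate 1 and 0.31 without KL replicate 2). The second peak thus carried 0.694 and 0.518 reads for each read of the first in KL, and 0.721 and 0.887 in KLG4m/m cells. A test of whether a peak changed unlike its gene as a whole (edgeR's diffSpliceDGE) was read for both peaks. It gave an unadjusted p of 0.0275 for the second peak (adjusted p = 0.338) and of 0.0662 for the first (adjusted p = 0.488). The peaks were thus not shown to differ in change.

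Summed over both peaks, Stk11 rose from 142 ± 5.42 to 184 ± 18.9 CPM, 1.29-fold (log2 fold change 0.37, SE 0.0723, adjusted p = 1.75e-04). It was the only one of the 9 genes called by its summed reads, where 5.23% of all genes were called higher and 9.25% lower. The summed call held with DESeq2 (adjusted p = 0.0291) and was lost without KLG4m/m replicate 3 (0.47, adjusted p = 0.0781) or replicate 4 (0.26, adjusted p = 0.166). The call of the second peak was lost with DESeq2 (log2 fold change 0.62, adjusted p = 0.0538) and without either KLG4m/m library: the log2 fold change was 0.79 without replicate 3 (adjusted p = 0.307) and 0.42 without replicate 4 (adjusted p = 0.337). With either of these left out, edgeR called 0 of the 35486 peaks, and 5486 and 5178 peaks had an unadjusted p under 0.05, the second Stk11 peak among them both times.

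Markers of other cell types differed between the groups too, in cells sorted as negative for the leukocyte antigen CD45 and the endothelial antigen CD31. For scale, 5.23% of all 20871 genes were called higher, 9.25% were called lower and 10590 had a log2 fold change above 0. Of 7 leukocyte markers with a peak (Cd79a had none), 3 were called higher in KLG4m/m cells, Itgam and Adgre1 among them, 0 lower and all 7 had a log2 fold change above 0, and their summed signal was 219 and 227 CPM in KL and 294 and 278 CPM in KLG4m/m cells. Of the 6 epithelial genes, Epcam and Cdh1 were called lower, and of the alveolar type 2 genes Sftpb, Sftpa1 and Lamp3 were. Of 5 endothelial markers 1 was called lower (Tek), with a summed signal of 137 and 163 CPM against 131 and 148 CPM, and of 3 fibroblast markers with a peak 1 was called higher (Pdgfrb), with 64.4 and 71.7 against 69.3 and 73.1 CPM. The part of these differences in the Stk11 result was not tested.

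Gpx4, the gene altered in KLG4m/m mice, has its start-site peak at -62.0 kb from that of Stk11, and the peaks between and around them were read out for that reason. Within 100 kb of the first Stk11 peak the table listed 24 peaks of 10 other genes. Of these, 3 were called higher, 1 was called lower and 20 were not called, and 75% had a log2 fold change above 0, with a median of 0.16, beside 51.0% and a median of 0.01 over all peaks. The Gpx4 start-site peak held 242 and 236 reads in the KL libraries against 304 and 301 in KLG4m/m (log2 fold change 0.40, adjusted p = 0.00854). It lies at the gene's start, away from the deleted exons, and so does not check the deletion.

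The other peaks called higher near Stk11 belonged to Sbno2, a neighbour that encodes a transcriptional coregulator. Its called peaks held 268 and 204 reads against 309 and 315 (log2 fold change 0.46, adjusted p = 0.00765), and 75 and 67 against 117 and 87 (0.58, adjusted p = 0.0296). The other Sbno2 peaks were not called, with log2 fold changes of -0.14 to 0.23. The peak called lower was at Cbarp, on the other side of Stk11, with 85 and 93 reads in the KL libraries against 46 and 41 in KLG4m/m (log2 fold change -0.97, adjusted p = 0.00133). The other Cbarp peak was at 0.39 and not called (adjusted p = 0.0979). By diffSpliceDGE the called peak changed unlike Cbarp as a whole (adjusted p = 0.00764), and the other peak did not pass that test (adjusted p = 0.0721). Peaks of Arhgap45, Polr2e, Atp5f1d, Midn, Cirbp, Fam174c and Efna2 were not called. The engineered Gpx4 allele is in every KLG4m/m library, so its presence nearby and the loss of Gpx4 cannot be told apart in the values around Stk11.

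**Figure D2:**
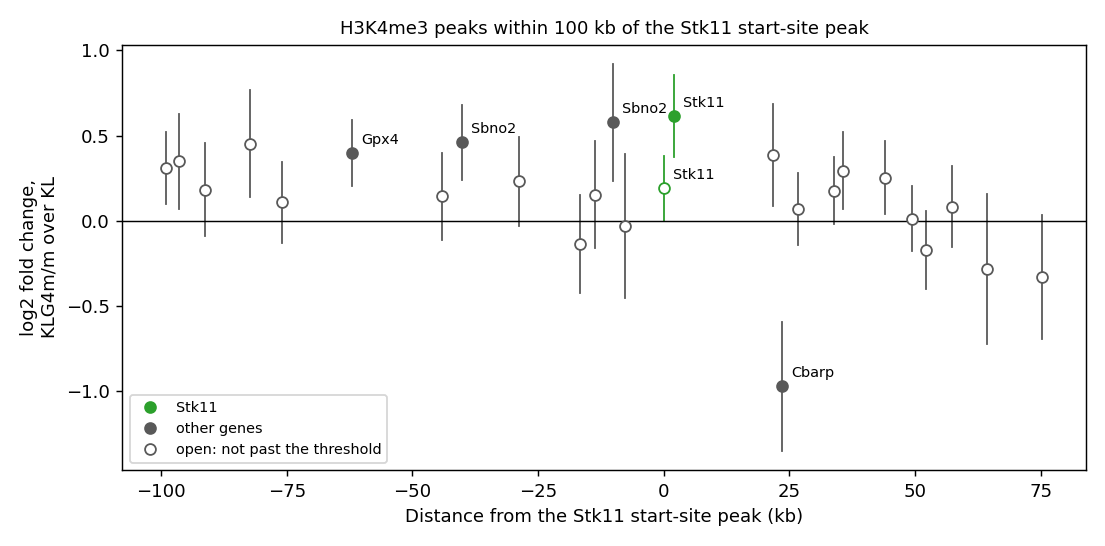
log2 fold change (KLG4m/m over KL) of each listed peak within 100 kb of the first Stk11 peak, against its distance in kb, with 95% intervals as lines. Stk11 is green, filled points are past the threshold, and 18 of the 24 points of other genes lie above 0.

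Among the AMPK subunits, Prkaa1, the alpha 1 catalytic subunit, had 1 peak (chr15:5173706-5174106, 363 bp inside the gene) and Prkaa2, the alpha 2 subunit, had none listed. The Prkaa1 peak held 131 and 133 reads in the KL libraries against 98 and 97 in KLG4m/m. Both KLG4m/m libraries were below both KL libraries, and the KL libraries nearly coincided. The means were 38.0 ± 0.441 and 29.2 ± 1.14 CPM (log2 fold change -0.38, SE 0.140, 95% interval -0.67 to -0.09), and the peak was not called (adjusted p = 0.0901). Taken as a gene, Prkaa1 passed in 1 of 12 alternatives, a minimum of 10 CPM (-0.39, adjusted p = 0.0495), under which its peak did not pass in the test over peaks (adjusted p = 0.0609).

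Prkab1, the beta 1 scaffold subunit, had 4 peaks. The start-site peak had 203 and 188 reads in KL libraries against 217 and 212 in KLG4m/m, without overlap (log2 fold change 0.19, adjusted p = 0.272). The other 3, at 14.4, 16.3 and 26.3 kb past the start and beyond the gene's far end, held 8 to 27 reads and had log2 fold changes of -0.68, -0.97 and -0.19. The peak at 16.3 kb held 18 and 21 reads against 11 and 8, which was not called (adjusted p = 0.124). Tested against Prkab1 as a whole, this peak had the lowest adjusted diffSpliceDGE p among the 13 peaks that could be tested this way (0.249). None of those 13 was called, 3 had an unadjusted p under 0.05, and of all 22232 peaks tested this way 1.29% were called and 11.6% had an unadjusted p under 0.05. The summed Prkab1 reads were 73.4 ± 5.23 CPM in KL and 75.7 ± 4.99 in KLG4m/m cells (log2 fold change 0.04, 95% interval -0.16 to 0.24).

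The SIK genes, which carry the signal from LKB1 to the CRTCs, each carried H3K4me3 in both groups. Sik1, itself a known target of CREB, had a peak 146 bp inside the gene (chr17:32074232-32074632) with 106 and 124 reads in the KL libraries against 88 and 80 in KLG4m/m. Its second peak, 2.36 kb inside (chr17:32072017-32072417), held 231 and 172 reads in the KL libraries against 218 and 193 in KLG4m/m. The groups were apart at the first (log2 fold change -0.40, SE 0.152, unadjusted p = 0.0151, adjusted p = 0.104) and overlapped at the second (0.09, adjusted p = 0.710). The inner peak held more reads than the start-site peak in every library, with ratios of 2.18 and 1.39 in KL and 2.48 and 2.41 in KLG4m/m cells.

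Sik2 had 1 peak (chr9:50919363-50919763), with 200 and 181 reads in the KL libraries against 213 and 199 in KLG4m/m and a log2 fold change of 0.17 (95% interval -0.05 to 0.39, adjusted p = 0.348). Sik3 had 1 peak (chr9:45925157-45925557), with 48 and 71 reads in the KL libraries against 92 and 70 in KLG4m/m. In CPM the groups were just apart, at 13.8 and 20.5 against 26.7 and 21.7. The log2 fold change of 0.50 (SE 0.193, 95% interval 0.10 to 0.90) was the second highest of the 18 and was not called (unadjusted p = 0.0154, adjusted p = 0.105), and it ranged from 0.25 without KL replicate 1 (adjusted p = 0.584) to 0.81 without KL replicate 2, where it passed (adjusted p = 0.0317).

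The table's annotation placed a further 10 peaks in introns of Sik3 (6), Crtc3 (3) and Sik2 (1) while listing them under other gene names (Gm46110, Pou5f1-rs9, Gm15880 and Gm25558). None of the 10 was called by edgeR or had an unadjusted p under 0.05. The 6 in Sik3 held 12 to 40 reads and had log2 fold changes of -0.60 to 0.15. Added to the listed Sik3 peak, they brought the log2 fold change of its summed reads from 0.50 to 0.08 (SE 0.103, adjusted p = 0.662), an addition chosen after the data were seen.

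The CRTC genes encode the coactivators that SIKs hold in the cytoplasm. The Crtc1 peak over the start site (chr8:70892268-70892668) held 176 and 126 reads in the KL libraries against 122 and 111 in KLG4m/m. KL replicate 1 stood above the other libraries, at 50.6 CPM, and KL replicate 2, at 36.3, was close to the 35.4 and 34.4 CPM of KLG4m/m cells. The log2 fold change was -0.32 (SE 0.147, adjusted p = 0.181), and it ranged from -0.54 to -0.06 when 1 library was left out, passing the threshold without KL replicate 2 (adjusted p = 0.0393).

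Crtc2, the CRTC best known from glucose production in the liver, had 1 peak (chr3:90162082-90162482) that held 274 and 259 reads in the KL libraries against 261 and 276 in KLG4m/m. The groups overlapped, and the interval of the log2 fold change was narrow (0.07, 95% interval -0.13 to 0.27, adjusted p = 0.710). Crtc3 had the most peaks of the 10 genes, 5. The one nearest its start (chr7:80337561-80337961) held 182 and 173 reads in the KL libraries against 183 and 172 in KLG4m/m (0.06, 95% interval -0.18 to 0.29, adjusted p = 0.8003).

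The other 4 Crtc3 peaks were weak. They lay 8.37, 16.1 and 21.5 kb inside the gene, in introns 1 and 2, and at -25.4 kb in an intron of Iqgap1, and held 9 to 44 reads with log2 fold changes of -0.29 to 0.48 and adjusted p of 0.437 to 0.908. The intron peaks of Crtc3 listed under another name were stronger, with up to 182 reads. One in intron 2 (chr7:80297196-80297596) held 171 and 161 reads in the KL libraries against 175 and 182 in KLG4m/m, close to the peak at the gene's start. With these 3 peaks added, the summed reads of Crtc3 had a log2 fold change of 0.14 (SE 0.0655, adjusted p = 0.157).

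**Figure D3:**
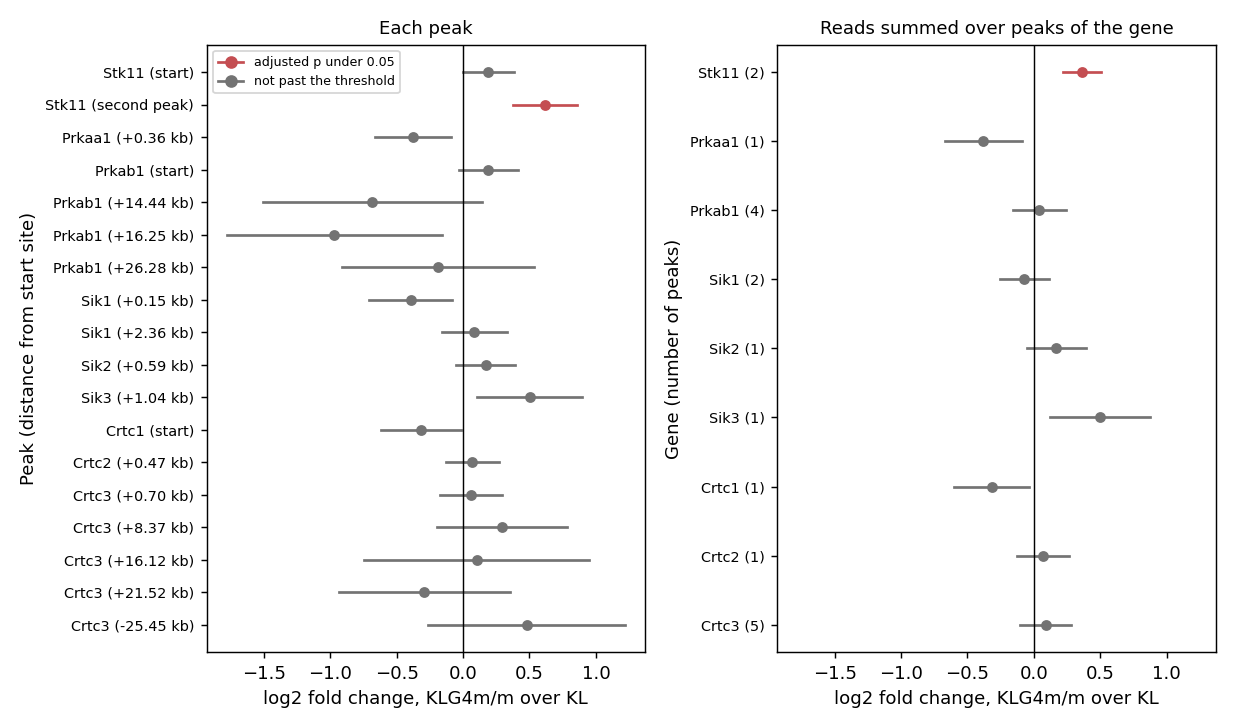
log2 fold change (KLG4m/m over KL) with its 95% interval for each of the 18 peaks (left) and for the reads summed over the peaks of each of the 9 genes (right, number of peaks in brackets). The second Stk11 peak at 0.62 and the Stk11 sum at 0.37 are the values past the threshold, and the intervals of the weak distal peaks of Prkab1 and Crtc3 are the widest.

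The surrounding pathway was read out from 7 lists of 54 further genes, by the reads summed over the peaks of each gene. Of the 50 with a listed peak (Mark3, Tsc2, Pck1 and G6pc had none), 2 were called higher, 3 lower and 45 not, where 14.5% of all genes were called in either direction. The median log2 fold change was 0.02, beside 0.00 over all genes. DESeq2 called 0 of the 50, and 14 had an unadjusted edgeR p under 0.05, as did 5974 of all 20871 genes.

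The partners of LKB1 moved in both directions. Strada, the pseudokinase that holds LKB1 active, rose from 415 and 374 reads in KL to 443 and 465 in KLG4m/m cells (log2 fold change 0.26, SE 0.0805, adjusted p = 0.0197). None of its peaks was called by itself, and its start-site peak was at 0.26 (adjusted p = 0.0686). Cab39, which encodes the MO25 alpha scaffold, fell from 227 and 217 to 165 and 155 reads (-0.42, SE 0.114, adjusted p = 0.00808), chiefly at its start-site peak with 159 and 162 against 116 and 98 reads (-0.53, adjusted p = 0.0125). Their paralogs were not called: Stradb was at 0.23 (adjusted p = 0.0751) and Cab39l at 0.08 (adjusted p = 0.580).

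Among the other AMPK subunits 0 of 4 were called by edgeR or had an unadjusted p under 0.05, with Prkag3 at -0.47 (adjusted p = 0.367) and Prkag1 at -0.19 (adjusted p = 0.277). Of the 8 other kinases activated by LKB1 that had a peak, 1 was called. Snrk, a relative of AMPK, fell from 194 and 213 reads to 138 and 125 (-0.57, SE 0.123, adjusted p = 5.82e-04). Its start-site peak held 131 and 149 reads in the KL libraries against 78 and 68 in KLG4m/m (-0.88, adjusted p = 4.76e-04), while the peak 1.86 kb inside held 63 and 64 against 60 and 57. That inner peak had a log2 fold change of -0.06, against -0.57 for the gene as a whole. This did not pass the test of the difference (diffSpliceDGE unadjusted p = 0.0109, adjusted p = 0.222), nor did the start-site peak (unadjusted p = 0.0529, adjusted p = 0.443). Mark1 was at 0.50 (adjusted p = 0.259) and Brsk2 at -0.48 (adjusted p = 0.0912).

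Of the 3 other kinases upstream of AMPK 0 were called by edgeR or had an unadjusted p under 0.05, with Camkk2 at -0.09 and Map3k7 at 0.07. Of 8 AMPK substrates with a peak 1 was called. Acaca, the acetyl-CoA carboxylase that AMPK inhibits and that makes the first committed step of fatty acid synthesis, fell from 224 and 242 reads to 168 and 175 at its single peak (-0.38, SE 0.112, adjusted p = 0.0127). Mff, a receptor for mitochondrial fission, was at -0.27 (adjusted p = 0.0774).

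On the CRTC side, 0 of 9 CREB factors, CREB coactivators and class IIa histone deacetylases were called, with 2 at an unadjusted edgeR p under 0.05: Hdac9 at -0.26 (adjusted p = 0.0910) and Hdac7 at 0.21 (adjusted p = 0.1497). Of 14 genes known as CREB and CRTC targets that had a peak, 1 was called and 9 had a log2 fold change above 0. Over all 20871 genes, 14.5% were called in either direction and 10590 were above 0. Per1, a circadian clock repressor, rose from 871 and 814 reads over 3 peaks to 905 and 977 (0.22, SE 0.0601, adjusted p = 0.00822), and 1 of its peaks was called by itself (327 and 302 against 376 and 383 reads, adjusted p = 0.0187). Areg, an EGF receptor ligand, was at -0.33 (adjusted p = 0.101) and Cited2 at -0.20 (adjusted p = 0.168). The calls of Strada, Cab39, Snrk, Acaca and Per1 were each lost with DESeq2 (adjusted p = 0.0669 to 0.294) and without either KLG4m/m library. Those of Strada, Acaca and Per1 were also lost without KL replicate 2, and that of Cab39 without KL replicate 1.

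**Figure D4:**
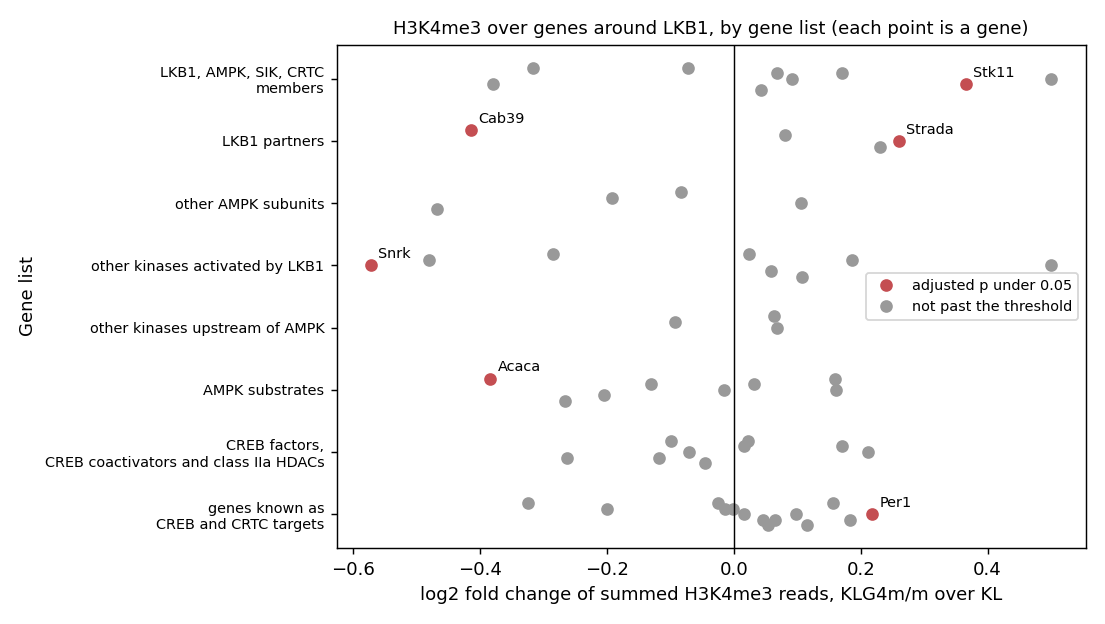
log2 fold change (KLG4m/m over KL) of summed H3K4me3 reads for the 9 member genes and the 50 pathway genes with a peak, by list, each point being a gene. Stk11, Strada and Per1 are past the threshold above 0, and Cab39, Snrk and Acaca below 0.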

How the data were processed

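H3K4me3 CUT&Tag libraries of sorted tumor cells from KL (n = 2) and KLG4m/m mice (n = 2) were analysed; the H3K27ac libraries were not used here. Per the labels, the authors trimmed reads with Trim Galore 0.6.10, aligned them with BWA 0.7.15, removed duplicates with Picard 2.17.3, called peaks with MACS2 2.2.7.1 and used HOMER 4.11.1; the role and order of these tools are read from the methods. The authors deposited 1 table of peaks with the read counts of each library, the gene assigned to each peak and its distance from a start site. The counts are raw. How peaks were merged across libraries is not given in the sources used here. The build is not named in the table, and a contig in it (MU069435) is one of GRCm39 while the methods name Ensembl 94, so peak positions are given as deposited. The authors' columns of fold changes, p-values and FDR and their 4 CPM columns were not used.

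Counts were tested with edgeR 4.0.16 (R 4.3.3) by the quasi-likelihood test with TMM scaling, no filter, the design ~ group and Benjamini-Hochberg adjustment over all peaks, or over all genes after summing the reads of each gene's peaks. Each peak was compared with its gene as a whole by diffSpliceDGE. The tests were tested on simulated data. Alternatives used DESeq2 1.42.0, limma 3.58.1 on log2(CPM + 1) or log2(CPM + 0.25) with or without quantile normalization, no TMM, a minimum of 10 CPM, peaks within 1 kb of a start site, the nearest peak, a 1.5-fold minimum and each library left out. An exact permutation test of 2 libraries against 2 cannot go below p = 0.333 (two-sided). The p-values measure only the spread between these libraries, described as 2 mice per group. Standard errors are the log2 fold change over the square root of edgeR's F. The members and lists were chosen with earlier results of these data known. Named were all members with all peaks, list genes past the threshold with up to 2 others per list of largest absolute log2 fold change, and genes near Stk11; a few genes and alleles are not reported here. Promoter windows are those of RefSeq (GRCm38.p6).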

Additional observations from a re-analysis of the deposited data

How the results depend on the processing

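The second Stk11 peak passed the threshold in 8 of 11 alternatives, with log2 fold changes of 0.42 to 0.79 and adjusted p of 6.13e-05 to 0.337, and the summed Stk11 reads in 9 of 12 (0.19 to 0.47, adjusted p = 5.87e-05 to 0.187), failing with the nearest peak in place of the sum (0.19) and without either KLG4m/m library. With DESeq2 the table had 33 peaks higher and 244 lower, 0 member peaks higher and 0 pathway genes higher or lower. Quantile normalization gave 486 higher and 866 lower and 0 pathway genes higher. A minimum of 10 CPM gave 1 member gene lower, peaks within 1 kb alone gave 656 higher, the nearest peak gave 0 member genes higher, and a 1.5-fold minimum gave 712 higher and 0 member genes higher.

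With 1 library left out, the whole table gave 0 to 702 peaks higher and 0 to 1459 lower, member peaks 0 to 2 higher and 0 to 1 lower, member genes 0 to 2 higher and 0 to 1 lower, and pathway genes 0 to 2 higher and 0 to 2 lower. The counts of 0 over the whole table arose without KLG4m/m replicate 3 or 4, for which edgeR gave 5486 and 5178 peaks at an unadjusted p under 0.05; the cause was not tested. Signs turned only when 1 library was left out, all at adjusted p of at least 0.708. Over these left-out libraries the Sik1 sum ran from -0.161 to 0.0239, the inner Sik1 peak from -0.111 to 0.312, the Crtc3 peak at 16.1 kb from -0.378 to 0.83 (-0.343 without KLG4m/m replicate 3) and that at 21.5 kb from -0.573 to 0.0572. The Prkab1 sum ran from -0.0273 (-0.0212 without KLG4m/m replicate 4) to 0.118, the Prkab1 peak at 26.3 kb from -0.53 to 0.101, and Crtc2, by its peak and its sum, from -0.017 to 0.152. No member peak was called as changing unlike its gene as a whole in any of 5 alternatives, which does not show that the peaks of a gene changed alike. In the reported test 3 of 13 had an unadjusted diffSpliceDGE p under 0.05, beside 11.6% of all peaks tested.

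No paired analysis was possible because the H3K4me3 libraries of KL (replicates 1 and 2) and KLG4m/m (replicates 3 and 4) share no replicate number. No scaling moved the median of all peaks by over 0.1 (0.01 with TMM, 0.00 without, 0.02 after quantile normalization). Peaks with 8 to 44 reads have intervals too wide to show changes of the size called at Stk11.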
